A study of Medicago sativa with 24 samples.

Results

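The 43 genes described here had a higher signal on every leaf array of the tetraploid (4x) alfalfa hybrids than on any array of their diploid (2x) full sibs. They were chosen by their measured values. On the log2 scale, all 9 arrays of the 4x hybrids had to lie above all 9 arrays of the 2x hybrids, the means of these groups had to be over 1 apart (a 2-fold difference), and the means of the parents could be at most 2 apart. Of the 41527 genes on the array, 76 met the first 2 conditions, which is 0.183% of the genes, and 26 of these were left out because the parents were further apart. Of the remaining 50 genes, 4 that the study had listed for their ontology terms, 1 other named gene, and 2 annotated with words for mobile elements or disease resistance were also left out. For comparison, 50 genes were lower on every 4x array by the same rule.

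The 4x genotypes (S29-4x, S48-4x, S60-4x) and the 2x genotypes (S8-2x, S16-2x, S24-2x) came from 1 cross of 2 diploid Medicago sativa plants, the subsp. falcata seed parent PG-F9 and the pollen parent 12P, which descends from a cross of subsp. coerulea and subsp. falcata. Both parents form unreduced as well as normal gametes, and the 4x hybrids arose where an unreduced egg met unreduced pollen, so that all hybrids are full sibs. Each of the 8 genotypes had 3 replicates, each a bulk of young leaves of 2 cloned plants of that genotype, and each replicate was hybridized to 1 array. A ploidy level was thus represented by 3 genotypes, and the arrays of a genotype share their alleles. No treatment was applied.

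In a plant with doubled chromosomes the number of copies of every gene goes up together, so a uniform rise of all transcripts cannot be seen in equal amounts of RNA. What an array can show is a gene whose share of the leaf RNA differs between ploidy levels. Full sibs also differ in which parental alleles they received, and a 4x plant from unreduced gametes can carry more of the alleles of each parent than a 2x sib does. The probes were designed on the related species M. truncatula, so an allele that pairs less well with a probe gives less signal. In whole leaves, fewer cells of a type and less RNA per cell cannot be told apart.

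The deposited intensities had medians per array between 499.3 and 527.7. An array's highest negative control was exceeded by 66.0% to 79.1% of its genes. Of the 8 leaf genes checked (chlorophyll a/b binding proteins, the small subunit of Rubisco and a photosystem I subunit), 6 were above it on all 24 arrays. The mean log2 intensity of these leaf genes was between 11.55 and 12.68 on the 4x arrays, between 10.19 and 10.85 on the 2x arrays and between 10.08 and 12.34 on the parental arrays. The study had listed them as higher in the 4x hybrids on these samples, so this split is not independent, and their part in the values below was not tested. Markers of other cell types were not used here. The labels give no slide or scan batch, so none was tested.

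All 43 genes stand in the study's list of differentially expressed genes, which was made from these same arrays, and 24 of them have an annotation that names a function, a family or a domain. Of the other 19, 13 are called hypothetical proteins. By the words of the annotation, 6 genes were placed under regulation, 4 under specialised metabolism, 4 under primary metabolism, 3 under the cell wall and sugars, 3 under lipids, 3 under other domains and 1 under transport. NP identifiers, which stand for coding sequences predicted in genomic clones of M. truncatula, made up 51.2% of the 43 genes, against 26.7% of all genes on the array. TC identifiers, which stand for assembled transcripts, made up 48.8% of the 43 and 73.3% of all genes. Among the 50 genes lower on every 4x array, 14% had an NP identifier. Over the whole array, the mean of the 4x hybrids was above that of the 2x hybrids for 56.2% of the NP genes and for 45.9% of the TC genes, and 34.5% of the NP genes and 71.2% of the TC genes were above the highest negative control on every array. The intensities of different genes come from different probes and are not set against each other.

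Since the 4x and 2x arrays chose the genes, the difference between these groups is given as a description, with no p. It was between 1.002 and 2.82 on the log2 scale, with a median of 1.44, against a median of -0.01 over all genes. In fold, this was 2.02 to 7.08, with a median of 2.71, over the 41 genes with a 2x array above the highest negative control. The distance between the lowest 4x array and the highest 2x array was between 0.02 and 1.72 on the log2 scale, with a median of 0.21, so in most of the genes the edges of the groups were close. The SD over the 9 arrays of a group, at the median over the 43 genes, was 0.373 for the 4x and 0.366 for the 2x hybrids, against 0.261 and 0.295 over all genes. In the limma fits across all genes used below, a gene was called at a Benjamini-Hochberg adjusted p under 0.05 and a log2 difference over 1. Between the 4x and 2x hybrids 0.824% of all genes were called higher in this way. The 43 all fell among them, which the rule nearly ensures, so nothing is read from that count.

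**Figure D1:**
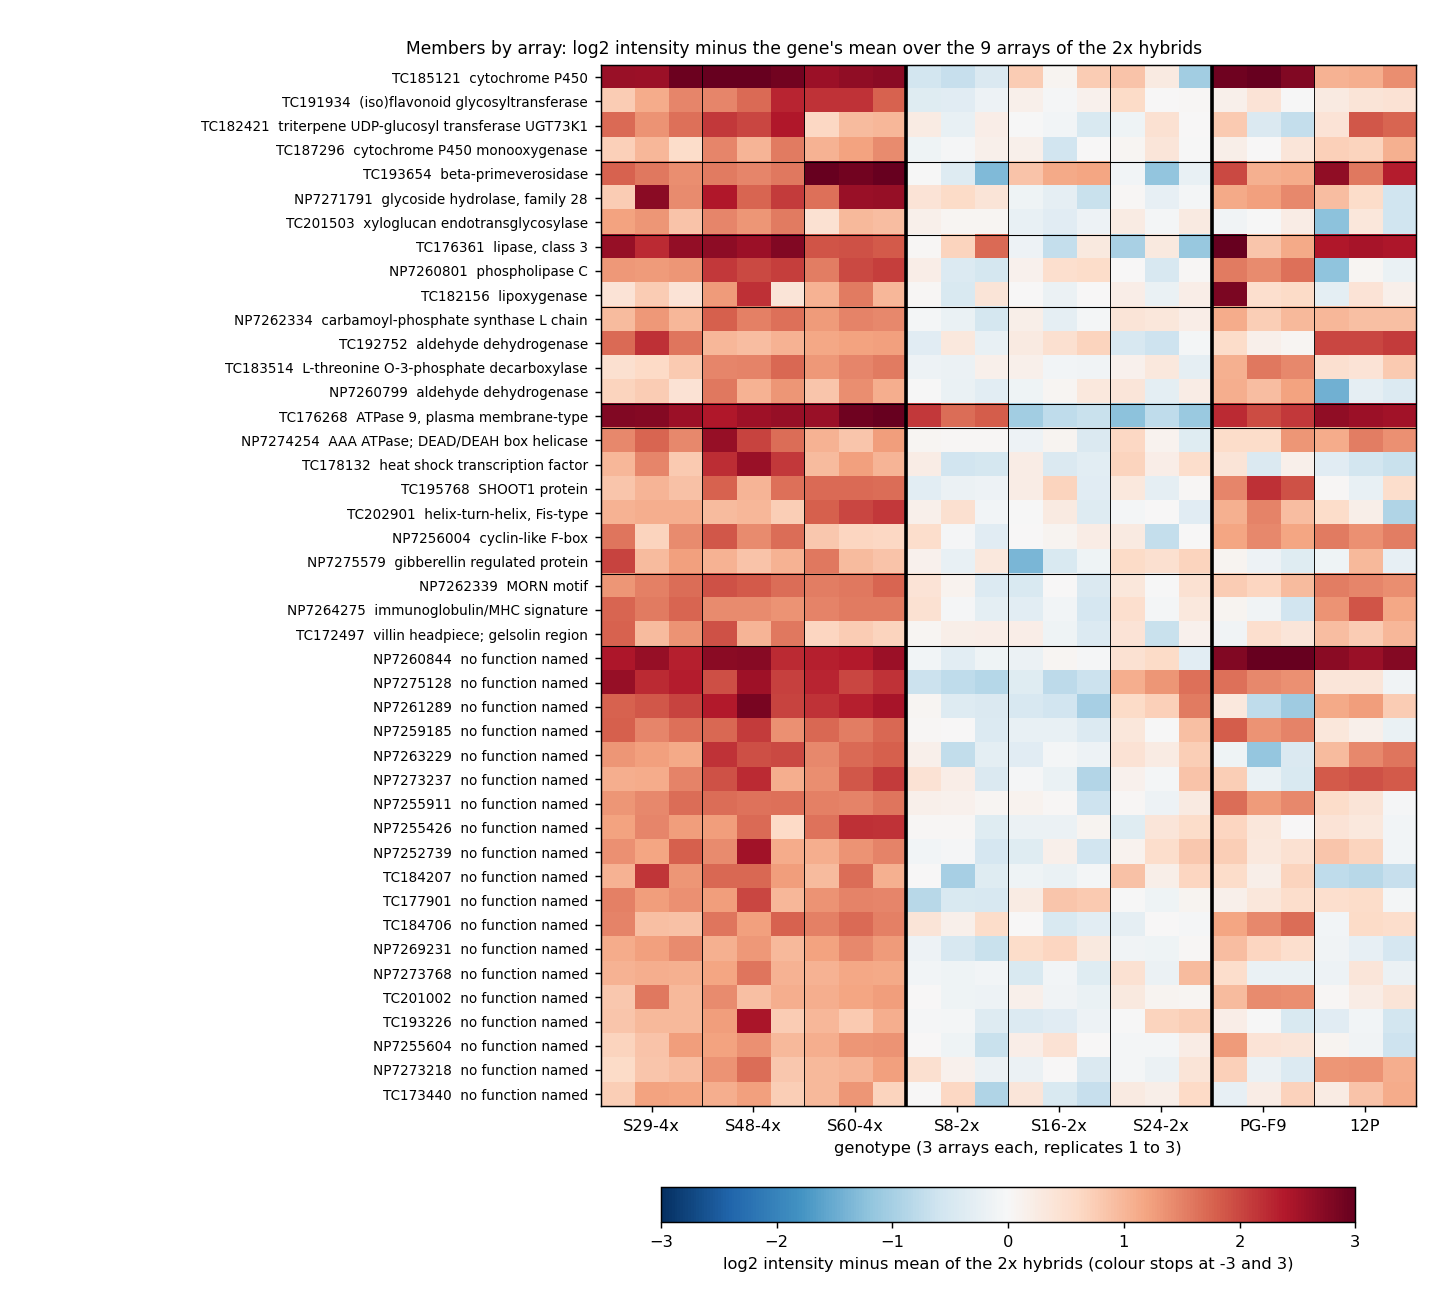
Log2 intensity of the 43 genes (rows, grouped by annotation, with the gene's annotation beside its identifier) on the 24 arrays (columns, 3 per genotype), minus the gene's mean over the 9 arrays of the 2x hybrids; red is higher, blue lower, and the colour stops at -3 and 3. The 4x columns are red throughout because the genes were chosen for it, while the mean of the parental columns lies between those of the 2x and the 4x hybrids in 37 rows and the columns of PG-F9 and 12P differ from each other in many.

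Among the 4 genes of specialised metabolism, which builds the flavonoids, saponins and other compounds particular to plant families, the largest difference of all 43 genes was found. TC185121, a cytochrome P450, one of a large family of oxygenases, had a log2 intensity of 10.11 at the lowest, 10.25 at the median and 10.96 at the highest of the 4x arrays, against 6.49, 7.61 and 8.39 on the 2x arrays. In PG-F9 it had 10.46, 10.81 and 10.31, and in 12P 8.58, 8.64 and 8.94. The 4x arrays and those of PG-F9 covered a similar range, 12P stood between, and every 2x array was below every parental array. The 4x mean was 7.08-fold that of the 2x hybrids (log2 difference 2.82), and the groups were 1.72 apart at their edges, the widest such distance among the 43.

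TC191934, annotated as an (iso)flavonoid glycosyltransferase, an enzyme that joins a sugar to flavonoids, lay between 8.17 and 9.70 (median 9.11) on the 4x arrays and between 7.05 and 7.98 (median 7.43) on the 2x arrays. In PG-F9 it had 7.57, 7.81 and 7.41 and in 12P 7.68, 7.80 and 7.84, so both parents sat within the range of the 2x hybrids and below every 4x array. TC182421, annotated as the triterpene UDP-glucosyl transferase UGT73K1, an enzyme that adds glucose to the triterpene cores of saponins in M. truncatula, lay between 9.26 and 11.04 (median 10.28) on the 4x arrays and between 8.17 and 9.08 (median 8.62) on the 2x arrays. Here the parents were apart, with 9.41, 8.19 and 7.92 in PG-F9 and 9.05, 10.48 and 10.38 in 12P. The difference between the 4x and 2x means was 1.65 for TC191934 and 1.54 for TC182421 on the log2 scale. A second cytochrome P450, TC187296, annotated at weak similarity, had a difference of 1.11.

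TC176268, annotated as a plasma membrane ATPase of type 9, a pump that moves protons out of the cell and so drives the uptake of other solutes, was the only gene placed under transport. It had 9.72 at the lowest, 9.94 at the median and 10.36 at the highest of the 4x arrays, against 6.09, 6.56 and 9.44 on the 2x arrays. The parents had values close to those of the 4x hybrids, with 9.55, 9.29 and 9.44 in PG-F9 and 9.98, 9.90 and 9.84 in 12P. The wide range of the 2x hybrids was a difference between sibs. S8-2x had 9.44, 8.99 and 9.13, while S16-2x had 6.28, 6.56 and 6.65 and S24-2x 6.09, 6.56 and 6.20, and 7 of the 9 2x arrays were above the highest negative control. In limma fits of 3 against 3 arrays, S8-2x was higher than S16-2x by 2.69 ± 0.17 on the log2 scale (SE, adjusted p = 0.000411) and higher than S24-2x by 2.90 ± 0.18 (adjusted p = 0.000308). These comparisons between sibs of 1 ploidy level were used by the rule only in that no 2x array could reach a 4x array. The group difference of 2.69 for this gene thus stood on 2 of the 3 diploid genotypes.

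Of the 3 genes that act on the cell wall or on sugars, TC193654 is annotated at weak similarity as a beta-primeverosidase, an enzyme that in tea frees scent compounds from a disaccharide. On the 4x arrays it lay between 10.52 and 12.16 (median 10.71), against 7.81 to 10.31 (median 9.04) on the 2x arrays, with 11.11, 10.20 and 10.23 in PG-F9 and 11.79, 10.70 and 11.48 in 12P. It varied within both ploidy levels. S60-4x (mean 12.10) was above S29-4x (10.70) and S48-4x (10.66), and S16-2x (10.18) was above S8-2x (8.56) and S24-2x (8.63). The limma difference was -1.40 ± 0.13 for S29-4x minus S60-4x (SE, adjusted p = 0.00391), -1.44 ± 0.11 for S48-4x minus S60-4x (adjusted p = 0.00112) and -1.62 ± 0.32 for S8-2x minus S16-2x (adjusted p = 0.0378). The call between S8-2x and S16-2x was lost without replicate 2 of S8-2x and without replicate 2 or 3 of S16-2x, at limma adjusted p between 0.0899 and 0.125.

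NP7271791 belongs to glycoside hydrolase family 28, which holds the polygalacturonases that cut pectin. It was above the highest negative control on 9 of 9 4x arrays and on 0 of 9 2x arrays, so the 2x hybrids have only an upper bound. Its measured values were 6.50 at the lowest, 7.85 at the median and 8.45 at the highest 4x array and 5.07, 5.68 and 6.31 on the 2x arrays, with 6.89, 6.97 and 7.18 in PG-F9 and 6.68, 6.29 and 5.15 in 12P. Set against the negative controls of the 2x arrays, the 4x mean was at least 2.81-fold higher. TC201503, a xyloglucan endotransglycosylase, which cuts and rejoins the xyloglucan chains that tie cellulose together in growing walls, lay between 10.79 and 11.88 (median 11.54) on the 4x arrays and between 9.99 and 10.59 (median 10.38) on the 2x arrays. PG-F9 had 10.21, 10.31 and 10.54 and 12P 9.09, 10.66 and 9.73, and the parental mean of this gene was below that of the 2x hybrids.

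The 3 lipid genes differed in their pattern over the genotypes. TC176361, a class 3 lipase, an enzyme that splits fatty acids from glycerolipids, lay between 9.78 and 10.73 (median 10.52) on the 4x arrays and between 6.82 and 9.66 (median 7.99) on the 2x arrays, a log2 difference of 2.35. The arrays of 12P were close together at 10.35, 10.43 and 10.37, while those of PG-F9 were spread over 11.66, 8.77 and 9.10. NP7260801, annotated as a putative phospholipase C, which splits membrane phospholipids in signalling, lay between 11.33 and 12.18 (median 12.03) on the 4x arrays and between 9.52 and 10.60 (median 10.09) on the 2x arrays. In this gene the 4x hybrids resembled PG-F9 (11.60, 11.47 and 11.70) and the 2x hybrids 12P (8.84, 10.10 and 9.85).

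TC182156, a lipoxygenase, one of the enzymes that add oxygen to fatty acids on the way to jasmonate and related compounds, had the smallest difference of the 43. It was above the highest negative control on 2 of 9 4x arrays, 0 of 9 2x arrays and 1 of 6 parental arrays, so no fold is given. The values were between 5.27 and 7.05 (median 5.86) on the 4x arrays and between 4.42 and 5.25 (median 4.89) on the 2x arrays, and the edges were 0.02 apart. With values raised to the highest negative control of their array, the log2 difference was 0.09.

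Each of the 4 genes of primary metabolism differed by less than 1.5 on the log2 scale. NP7262334, annotated with the large chain of carbamoyl-phosphate synthase, which makes a precursor of arginine and pyrimidines, lay between 10.10 and 10.94 (median 10.59) on the 4x arrays and between 8.62 and 9.53 (median 9.10) on the 2x arrays. The parents were alike in this gene, with 10.25, 9.89 and 10.13 in PG-F9 and 10.15, 10.05 and 10.05 in 12P, above every 2x array. TC183514 is annotated as L-threonine O-3-phosphate decarboxylase, an enzyme known from the cobalamin pathway of bacteria. It lay between 8.32 and 9.55 (median 9.29) on the 4x arrays and between 7.55 and 8.14 (median 7.76) on the 2x arrays, and again every parental array (8.88, 9.42 and 9.28 in PG-F9, 8.32, 8.25 and 8.61 in 12P) was above every 2x array.

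The other 2 genes here are aldehyde dehydrogenases, which oxidize reactive aldehydes to acids. TC192752 lay between 8.87 and 10.15 (median 9.16) on the 4x arrays and between 7.33 and 8.61 (median 7.88) on the 2x arrays. Its parents were far apart, at 8.51, 8.10 and 8.01 in PG-F9 and 9.95, 9.96 and 10.04 in 12P. In NP7260799 the parents were apart the other way, with 8.80, 8.63 and 8.91 in PG-F9 and 6.27, 7.43 and 7.31 in 12P, while the 4x arrays lay between 8.14 and 9.28 (median 8.76) and the 2x arrays between 7.39 and 8.06 (median 7.70).

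Of the 6 genes under regulation, TC178132, a heat shock transcription factor, one of the proteins that switch on chaperone genes under stress, had the largest difference from the parents. It had 9.28 at the lowest, 9.70 at the median and 11.07 at the highest of the 4x arrays, against 7.91, 8.68 and 9.15 on the 2x arrays, with 8.88, 8.04 and 8.63 in PG-F9 and 8.13, 7.94 and 7.81 in 12P. All 6 parental arrays were below the lowest 4x array, 5 of them within the range of the 2x hybrids and 1 just below it, and S48-4x stood above its sibs, with 10.69, 11.07 and 10.60. The limma difference was -1.23 ± 0.21 for S29-4x minus S48-4x (SE, adjusted p = 0.0258) and 1.25 ± 0.16 for S48-4x minus S60-4x (adjusted p = 0.00682). The call between S29-4x and S48-4x was lost without replicate 1 or 3 of S29-4x or any 1 array of S48-4x, at limma adjusted p of up to 0.0947.

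NP7274254 carries an AAA ATPase and a DEAD/DEAH box helicase domain, which are found in proteins that unwind nucleic acids with ATP. It lay between 7.06 and 8.84 (median 7.67) on the 4x arrays and between 5.78 and 6.84 (median 6.25) on the 2x arrays, of which 4 of 9 were above the highest negative control, with 6.78, 6.77 and 7.55 in PG-F9 and 7.34, 7.77 and 7.59 in 12P. TC195768, annotated at weak similarity to a SHOOT1 protein, lay between 7.78 and 8.71 (median 8.60) on the 4x arrays and between 6.60 and 7.62 (median 6.80) on the 2x arrays. PG-F9 (8.40, 9.15 and 8.85) was in the range of the 4x hybrids or above it, and 12P (6.99, 6.73 and 7.46) in the range of the 2x hybrids.

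NP7256004 holds a cyclin-like F-box, the part by which proteins that mark others for breakdown bind their ligase. It lay between 6.83 and 8.06 (median 7.61) on the 4x arrays and between 5.50 and 6.72 (median 6.21) on the 2x arrays, of which 4 of 9 were above the highest negative control, and both parents were above every 2x array (7.38, 7.66 and 7.38 in PG-F9, 7.77, 7.57 and 7.73 in 12P). NP7275579, of the gibberellin regulated family of small cysteine-rich proteins, and TC202901, with a weak match to a bacterial type of helix-turn-helix, had log2 differences of 1.17 and 1.31.

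Among the 3 genes known only by other domains, NP7262339, with a MORN motif, a short repeat found in plant lipid kinases, lay between 9.31 and 9.88 (median 9.65) on the 4x arrays and between 7.51 and 8.43 (median 7.99) on the 2x arrays. Its edges were 0.88 apart, one of the 4 widest distances. NP7264275, annotated with an immunoglobulin/MHC signature, lay between 7.55 and 7.96 (median 7.77) on the 4x arrays and between 5.72 and 6.71 (median 6.16) on the 2x arrays, with 6.29, 6.12 and 5.63 in PG-F9 and 7.57, 8.09 and 7.37 in 12P. Here 12P was like the 4x hybrids and PG-F9 like the 2x hybrids, where 4 of 9 arrays were above the highest negative control. TC172497, with the villin headpiece and gelsolin regions of proteins that bundle and cut actin filaments, had a log2 difference of 1.19.

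The 19 genes with no named function held 3 of the 6 largest differences. NP7260844 had 8.57 at the lowest, 8.76 at the median and 9.08 at the highest of the 4x arrays, against 6.02, 6.25 and 6.90 on the 2x arrays, of which 5 of 9 were above the highest negative control. The parents had 9.11, 9.86 and 9.68 (PG-F9) and 9.05, 8.94 and 9.08 (12P), so that the 2x hybrids alone were low in this gene and their 3 genotypes (means 6.16, 6.28 and 6.57) were near each other. NP7275128 had 11.71, 12.01 and 12.39 at the lowest, median and highest 4x array, against 8.91, 9.12 and 11.43 on the 2x arrays, with 11.42, 11.21 and 11.15 in PG-F9 and 10.13, 10.14 and 9.67 in 12P. In S24-2x (10.87, 11.11 and 11.43) it was higher than in S8-2x and S16-2x. The limma difference was -2.13 ± 0.17 for S8-2x minus S24-2x (SE, adjusted p = 0.00091) and -1.97 ± 0.19 for S16-2x minus S24-2x (adjusted p = 0.0224). The difference between S16-2x and S24-2x was not called without replicate 2 or 3 of either genotype, at limma adjusted p between 0.0876 and 0.148.

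NP7261289 lay between 12.96 and 14.04 (median 13.37) on the 4x arrays and between 10.19 and 12.75 (median 10.81) on the 2x arrays, with 11.50, 10.43 and 10.13 in PG-F9 and 12.33, 12.45 and 11.96 in 12P. S24-2x was again the highest of the 2x hybrids (mean 12.14, against 10.94 in S8-2x and 10.51 in S16-2x), but in this gene the adjusted p was 0.0516 and 0.0581 for the differences of S8-2x and S16-2x from S24-2x. NP7255911 had the least spread on the 4x arrays, between 12.02 and 12.39 (median 12.30), against 10.08 to 10.98 (median 10.76) on the 2x arrays. Over the remaining genes of this kind the log2 difference was between 1.02 and 1.68.

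**Figure D2:**
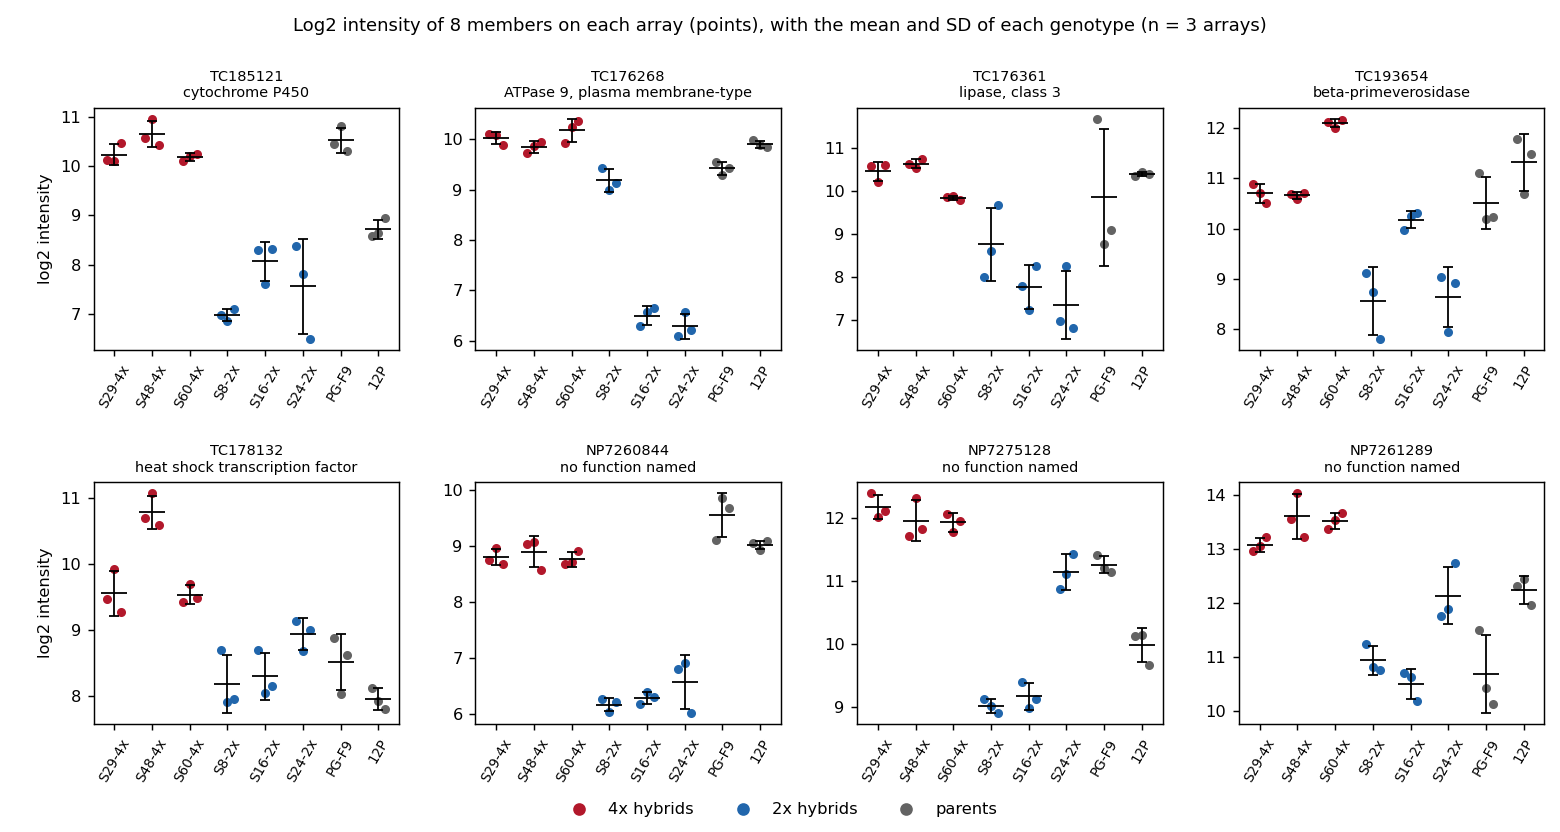
Log2 intensity (vertical axis) of 8 of the genes on each array (points) by genotype (horizontal axis), with the mean and SD of each genotype (bars, n = 3 arrays). TC176268 was low in S16-2x and S24-2x alone, NP7275128 was raised in S24-2x among the 2x hybrids, TC178132 was highest in S48-4x, and NP7260844 was low in each of the 2x hybrids and between 8.76 and 9.55 in the other genotypes.

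The parents show on which side of them the ploidy levels lay. The rule used the parental arrays only for the distance between PG-F9 and 12P, but each difference from the parents shares the 4x or 2x arrays that chose the genes, and the 2 differences share the parental arrays. They are therefore given as values and counts beside those of all genes, with no p. At the median over the 43 genes, the 4x mean was 0.76 above the mean of the 6 parental arrays (range -0.47 to 1.93) and the 2x mean was below it by a difference of -0.63 (range -2.95 to 0.24), where the medians over all genes were -0.02 and -0.01. The parental mean was nearer to that of the 2x hybrids in 25 genes and nearer to that of the 4x hybrids in 18. It lay between the means of the 2 ploidy levels in 37 genes, above the 4x mean in 2 (NP7260844 and NP7256004) and below the 2x mean in 4 (TC178132, TC184207, TC193226 and TC201503).

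The 4x mean was above the means of both parents in 29 genes, against 25.7% of all genes, and the 2x mean was below both in 29, against 25.8% of all genes. In 16 genes both held, in 13 only the 4x mean was above both parents, in 13 only the 2x mean was below both, and in 1 (NP7260799) neither held. In NP7260844 and NP7256004 the 4x mean was also below both parents, and in TC193226 the 2x mean was also above both. All 9 4x arrays were above all 6 parental arrays in 11 genes (1.57% of all genes), and all 9 2x arrays were below all 6 parental arrays in 6 genes (0.364% of all genes). The 11 held the glycosyltransferase TC191934, the wall enzyme TC201503, the heat shock factor TC178132 and 8 genes with no named function. The 6 held the cytochrome P450 TC185121, the synthase NP7262334, the decarboxylase TC183514, NP7262339, NP7256004 and NP7260844.

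By the same limma call, 14 of the 43 genes were higher for the 4x hybrids than for the parents, where 0.766% of all genes were called higher. Since the 4x arrays of these genes were chosen for being high, this count is a description. The largest differences from the mean of the 6 parental arrays were 1.93 in NP7261289, 1.72 in TC178132, 1.59 in TC184207 and 1.40 in NP7275128. They depended on the parent. NP7261289 was 2.71 above PG-F9 and 1.16 above 12P, and TC178132 1.44 above PG-F9 and 2.00 above 12P. TC184207 was 0.97 above PG-F9 and 2.20 above 12P, and NP7275128 0.76 above PG-F9 and 2.04 above 12P, so that without the arrays of 12P neither was called. TC184207, which has no named function, had 10.11 at the lowest and 11.30 at the highest of the 4x arrays, against 8.16 and 10.04 on the 2x arrays, with 9.70, 9.32 and 9.82 in PG-F9 and 8.39, 8.32 and 8.46 in 12P. The smallest differences from the parents were found in NP7260844 (-0.47), NP7256004 (-0.19), TC176361 (0.19) and TC192752 (0.20). Of the 14 calls, 4 were lost when 1 array was left out. NP7263229 lost it without any 1 array of S48-4x, S60-4x or PG-F9, and NP7271791 without replicate 1 of S48-4x, replicate 2 or 3 of S60-4x or replicate 2 or 3 of 12P. NP7269231 fell under a difference of 1 (0.88 to 0.99) without replicate 3 of S29-4x, replicate 2 of S60-4x or any 1 array of 12P, and TC177901 (0.995 and 0.999) without replicate 2 of S48-4x or replicate 3 of 12P.

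In the 2x hybrids, 5 genes were called lower than in the parents, where 0.128% of all genes were called lower. This count too is a description, since the 2x arrays were chosen for being low. The 5 were NP7260844, at a difference of -2.95 from the parental mean (-3.21 from PG-F9 and -2.68 from 12P), TC185121 at -2.09 (-2.99 and -1.18), NP7256004 at -1.38 (-1.27 and -1.49), NP7262339 at -1.12 (-0.78 and -1.47) and NP7274254 at -1.08 (-0.81 and -1.35). TC176268 and TC176361 had differences of -2.34 and -2.16 and were not called. The call of TC185121 was lost without any 1 array of S8-2x or PG-F9, replicate 2 of S16-2x or replicate 2 or 3 of S24-2x, and that of NP7274254 without replicate 2 of 12P, at a difference of -0.99. With genotype as a random block, 8 genes were called between the 4x hybrids and the parents and 1 between the 2x hybrids and the parents.

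**Figure D3:**
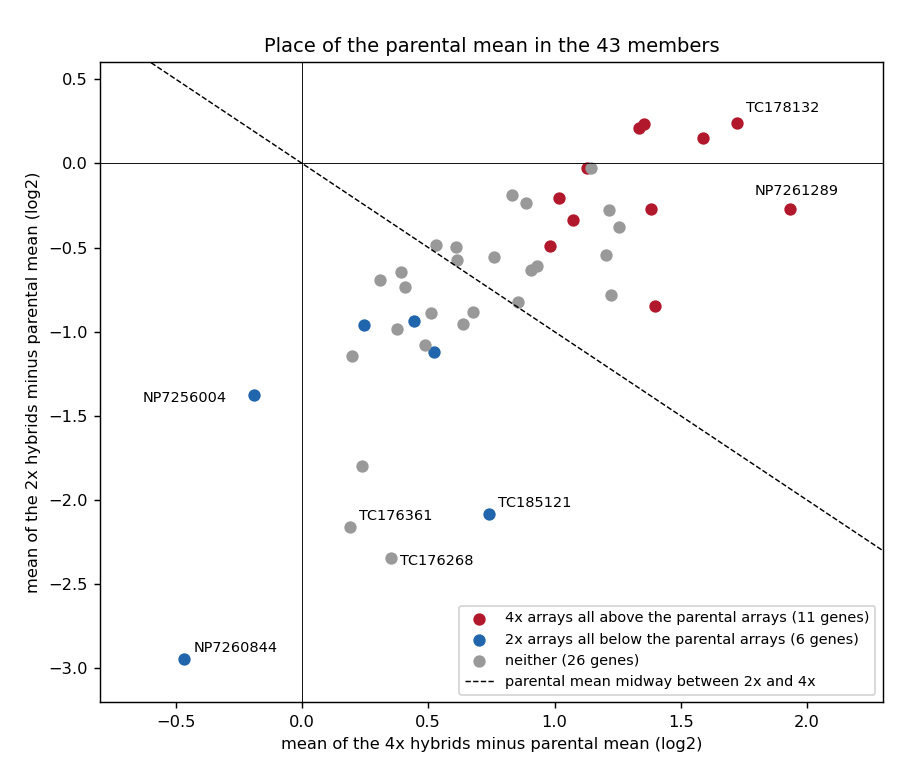
Mean of the 4x hybrids minus the parental mean (horizontal axis, log2) against mean of the 2x hybrids minus the parental mean (vertical axis, log2) for the 43 genes (points); red marks genes with all 4x arrays above the parental arrays, blue those with all 2x arrays below them, and on the dashed line the parental mean is midway between the ploidy levels. The 25 points right of the line have parents nearer the 2x hybrids, the 18 left of it parents nearer the 4x hybrids, with NP7260844 at the lower left and TC178132 at the upper right.

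PG-F9 and 12P differed more in these genes than in the array as a whole, although the rule left out genes with parents over 2 apart. Since the rule capped this distance, the values, calls and p-values between the parents are a description. All genes include those at background, and their part in the contrast was not tested. The absolute log2 difference between the parents was 0.903 at the median over the 43 genes and 0.299 over all genes. Over the 6 parental arrays, the SD at the median was 0.636, against 0.307 over all genes. The signal was higher in PG-F9 in 25 genes and higher in 12P in 18, and in 19 genes the parents were over 2-fold apart, 12 of them with PG-F9 on top and 7 with 12P. In limma fits, 16 genes were called, 10 higher and 6 lower in PG-F9, where 11.1% of all genes were called in either direction.

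Higher in PG-F9 were NP7260801 (1.99 ± 0.31, SE, adjusted p = 0.00494), TC185121 (1.81 ± 0.18, adjusted p = 0.000721), NP7260799 (1.78 ± 0.30, adjusted p = 0.00665) and TC195768 (1.74 ± 0.25, adjusted p = 0.00361), with NP7259185, NP7275128, TC184207, NP7255911, TC184706 and TC201002 at differences between 1.05 and 1.44. Lower in PG-F9 than in 12P were NP7263229 (-1.92 ± 0.29, adjusted p = 0.00432), NP7273237 (-1.83 ± 0.29, adjusted p = 0.00522), TC192752 (-1.78 ± 0.16, adjusted p = 0.000522), NP7264275 (-1.66 ± 0.25, adjusted p = 0.00374), NP7261289 and NP7273218. In 5 of the 16 the call was lost without 1 array. In NP7261289 this was replicate 2 of PG-F9 or replicate 1 or 2 of 12P (limma adjusted p between 0.0533 and 0.0691), and in NP7273218 replicate 2 or 3 of PG-F9 or any 1 array of 12P (0.0517 to 0.0813). The difference fell to between 0.88 and 0.99 in NP7255911 without replicate 3 of 12P, in TC184706 without replicate 3 of PG-F9 or replicate 1 of 12P, and in TC201002 without replicate 2 or 3 of PG-F9 or replicate 1 of 12P. The genes thus had no single parent on top. In NP7263229, for instance, the 4x arrays (8.23 to 9.27) lay around the values of 12P (8.05, 8.55 and 8.71) and the 2x arrays (6.36 to 7.84) around or above those of PG-F9 (6.96, 5.94 and 6.66), while in NP7260801 the parents were the other way round.

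The 3 hybrids of a ploidy level did not take turns evenly. Their ranks come from the same arrays that chose the 43 genes, while all genes were not chosen in this way. The counts below are therefore a description, and the part of the choice in them was not tested. S48-4x had the highest mean of the 4x hybrids in 25 of the 43 genes, or 58.1%, against 36.9% of all genes. S60-4x had it in 13 genes and S29-4x in 5, or 11.6%, against 34.1% of all genes. Among the 2x hybrids, S24-2x was the highest in 26 genes, or 60.5%, against 33.8% of all genes, with S16-2x in 9 and S8-2x in 8. The highest of the 9 2x arrays was replicate 3 of S24-2x in 13 genes, against 11.7% of all genes, and replicate 1 of S24-2x in 10, against 10.1% of all genes. In the order of the deposited records, the arrays of S24-2x stand among those of the 4x hybrids, after those of the parents, S8-2x and S16-2x. Whether this order marks a shared slide or scan is not given in the sources used here, and its part in these values was not tested.

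**Figure D4:**
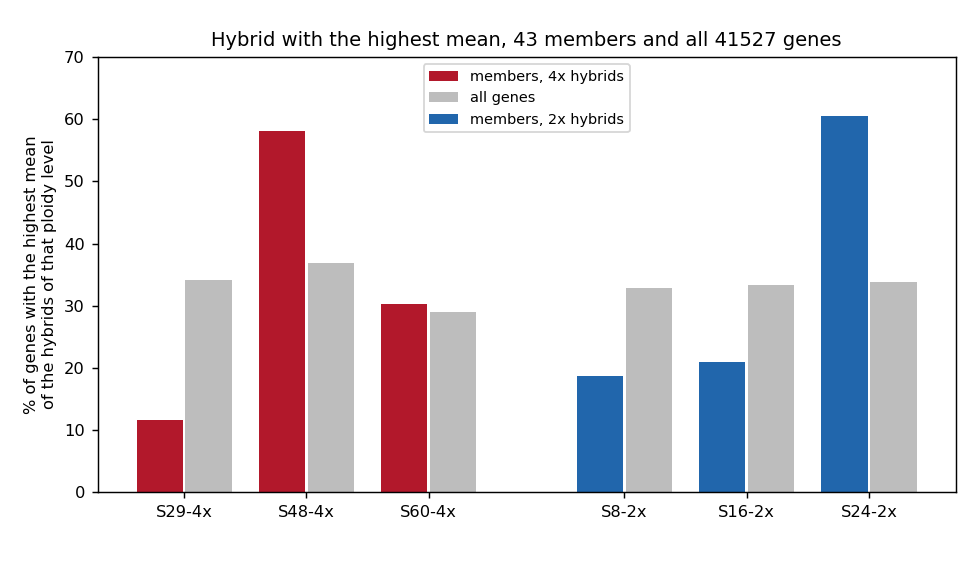
Percent of genes (vertical axis) in which each hybrid (horizontal axis) had the highest mean of the 3 hybrids of its ploidy level, for the 43 genes (red for 4x hybrids, blue for 2x hybrids) and for all genes of the array (grey). S48-4x and S24-2x stand above the grey bars at 58.1% and 60.5%, and S29-4x stands below them at 11.6%. The ranks come from the arrays that chose the 43 genes.

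The number of genes that met the rule changed most without S24-2x. Without its 3 arrays 332 genes met it, including all 43, and without its replicate 3 alone 92 met it, again including all 43. Without S29-4x 101 genes met it, including all 43. Without S48-4x 58 met it, including 36 of the 43, and without S60-4x 95, including 40. Without S8-2x 113 met it, including 39, and without S16-2x 89, including 36. The rule asks that the highest 2x array lie below the lowest 4x array, so with fewer arrays more genes can pass. Each genotype left out had 3 arrays, and why the number differed between the genotypes was not tested.

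Between sibs of the same ploidy level, between 1 and 4 of the 43 genes were called in each pair. The median absolute log2 difference was larger over the 43 genes than over all genes in every pair. It was 0.416 against 0.209 between S29-4x and S48-4x, and 0.206 against 0.182 between S48-4x and S60-4x. Between S16-2x and S24-2x it was 0.391 against 0.241. Among the 4x hybrids, 1 was called between S29-4x and S48-4x (3.16% of all genes), 1 between S29-4x and S60-4x (1.54%) and 4 between S48-4x and S60-4x (3.24%). Among the 2x hybrids, 4 were called between S8-2x and S16-2x (2.51% of all genes), 2 between S8-2x and S24-2x (3.42%) and 1 between S16-2x and S24-2x (0.864%). Besides the genes described above, TC182421 was higher in S48-4x than in S60-4x by 1.32 ± 0.16 (SE, adjusted p = 0.00554) and TC202901 differed by -1.08 ± 0.14 in the same pair (adjusted p = 0.00666). TC177901, with no named function, and TC185121 were lower in S8-2x than in S16-2x (-1.22 ± 0.20, adjusted p = 0.02, and -1.09 ± 0.21, adjusted p = 0.037). TC177901 lost this call without any 1 array of S8-2x or replicate 2 or 3 of S16-2x (limma adjusted p between 0.0550 and 0.0821), and TC185121 without any 1 array of S8-2x or replicate 1 or 3 of S16-2x (0.0606 to 0.137). With 3 arrays against 3, limma fits on simulated data recovered 83% to 88% of genes with a log2 change of 2, so smaller differences between sibs may go uncalled.

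Some of the 43 genes lie close together in the genome of M. truncatula. The annotation places 22 of them on a genomic clone, and 3 clones each hold 2 of them. NP7273218 and NP7273237, both with no named function, differed between the 4x and 2x hybrids by 1.04 and 1.59 on the log2 scale, and both were higher in 12P (PG-F9 minus 12P of -1.20 and -1.83). The aldehyde dehydrogenase NP7260799 and the phospholipase C NP7260801 differed by 1.02 and 1.75, and both were higher in PG-F9 (1.78 and 1.99). On the third clone, NP7262334 and NP7262339 differed by 1.38 and 1.65 with parents 0.01 and -0.69 apart. This clone also held NP7262338 and NP7262342, whose 4x arrays were above their 2x arrays without overlap as well (1.80 and 1.87), but whose parents were too far apart for the rule (-2.63 and -2.07). Genes on a clone are not independent, and where their probes or alleles are alike they may not be separate observations.

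In all, 11 further genes of the study's list lay on 8 of the clones. The 4x mean was above the 2x mean in 11 of the 11, and over 1 above it in 7. This is to be read against the list, which was made from these arrays: of its 299 genes with a clone, 81.9% had the higher mean in the 4x hybrids and 47.5% were over 1 higher, and of its 1019 genes on the array 57.2% and 32.1%.

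**Figure D5:**
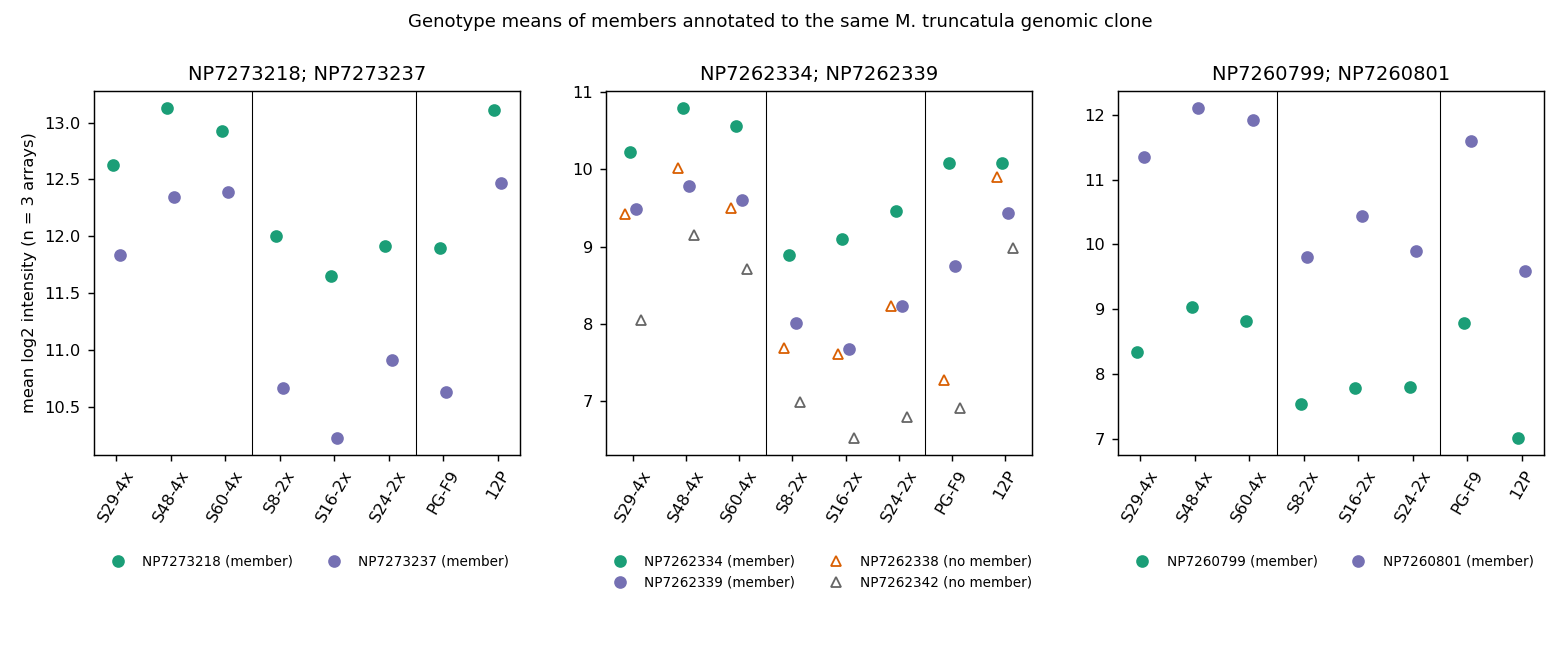
Mean log2 intensity (vertical axis, n = 3 arrays) by genotype (horizontal axis) for the pairs of genes annotated to the same M. truncatula clone (filled circles), and for 2 other genes of the middle clone that the rule left out for their parents (open triangles). In the left panel both genes are near the 4x hybrids in 12P and near the 2x hybrids in PG-F9, and in the right panel it is the other way round.

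The values near the limits of the rule show how sharply it separates the genes. By the difference of means, TC182156 (1.002) and NP7260799 (1.02) were just inside and NP7264010 (0.99) and TC193203 (0.98) just outside. By the distance between the edges of the groups, TC182156 (0.02) and TC193226 (0.03) were just inside and TC193227 (-0.003) and NP7254958 (-0.005) just outside. By the distance of the parents, NP7260801 (1.99) and NP7263229 (1.92) were just inside and TC200702 (2.05) and NP7262342 (2.07) just outside. TC193226 had 8.45 at the lowest and 10.13 at the highest 4x array, against 7.28 and 8.42 on the 2x arrays, and without the highest of these, replicate 2 of S48-4x, its difference was 0.96.

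Of the 43 genes, 32 were above the highest negative control on all 24 arrays, 42 on all 4x arrays and 33 on all 2x arrays. In 8 genes only some of the 2x arrays, and in 2 (NP7271791 and TC182156) none, were above it, so the differences of these genes are limited by the background. An array does not count molecules, and its precision is limited by the number of arrays and, between ploidy levels, by the 3 genotypes on each side.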

How the data were processed

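Leaf RNA of 8 genotypes (3 4x hybrids, 3 2x hybrids and 2 parents, 3 replicates each) was hybridized to 24 NimbleGen arrays with mostly 3 probes per gene. The deposited intensity of a gene on an array is on the linear scale, after the authors had made the quantiles of the arrays equal and combined the probes by RMA. Quantile normalization gives the arrays nearly the same distribution, so a shift shared by all genes is not visible. The intensities were transformed here to log2, and 11 negative controls were set aside. They served only to tell which values were above background.

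The 43 genes were found by the rule given above, whose annotation words were looked up in the study's supplementary list, and 28 were chosen for naming with values: the largest differences, the largest and smallest distances from the parents, the 3 largest differences in each annotation group, called differences between sibs and those next to a limit of the rule. The genes, lists and rules were chosen with earlier results of these data known. Groups were assigned from the labels. The test was that of limma (version 3.58.1, under R 4.3.3, with lmFit and eBayes, unpaired, each array an observation, only the arrays compared in the fit), with p-values adjusted by the Benjamini-Hochberg method over 41527 genes. The self-test on simulated data had 200 genes changed by 2 on the log2 scale. It recovered 99.5% of them between 4x and 2x hybrids and 86.5% between the parents. Its scatter was that of replicates only, and sibs of a ploidy level were simulated alike. The 99.5% therefore does not give the sensitivity of the fit for the real hybrids, whose sibs differ. Nothing in the labels or methods says that the plants of a replicate number were grown or handled together. Between 2 genotypes, p-values measure the spread between these bulks. In fits of groups of genotypes, the spread also holds differences between genotypes, and the arrays of a genotype are counted as separate observations.

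Alternatives were a second quantile normalization, median centring, a floor at the highest negative control, leaving out the third of all genes that was dimmest, trend and robust options of eBayes, the replicate block, 1 fit with 8 genotype means, genotype means as observations, genotype as a random block, no threshold on the difference, other limits of the rule, and leaving out each array or genotype. The counts were made with Python 3.11.15, numpy 2.4.6 and pandas 2.3.3, and the plots with matplotlib 3.10.9. The gene list of M. sativa used here held 0 of the array's identifiers, so sequences and positions are not given.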

Additional observations from a re-analysis of the deposited data

Results flagged for a closer look

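In 129 groups of arrays (the 4x, the 2x and the parental arrays of each of the 43 genes), 6 values stood apart from the rest of their group. Chance alone sets apart about 1 in 20 where all values come from 1 normal population. These groups hold arrays of 2 or 3 genotypes, so that share is only a rough guide and nothing is read from the count. The measure is the gap to the nearest other array as a share of the whole range. In the 4x hybrids, replicate 2 of S48-4x was above the other 8 arrays in NP7273768 (share 0.731, log2 intensity 10.01), in TC193226 (0.715, 10.13) and in NP7252739 (0.509, 10.503), all 3 without a named function. In the 2x hybrids, replicate 3 of S16-2x was below the others in NP7255911 (0.538, 10.08). Among the parents, replicate 2 of 12P was above the others in the gibberellin regulated gene NP7275579 (0.660, 7.81), and replicate 1 of PG-F9 in the lipoxygenase TC182156 (0.723, 7.70).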

How the results depend on the processing

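The members found by the rule numbered 18 with means over 1.5 apart, 24 with parents at most 1 apart and 65 with no limit on the parents. Without 1 genotype they numbered 332 (S24-2x), 113 (S8-2x), 89 (S16-2x), 101 (S29-4x) and 95 (S60-4x), and without 1 array between 42 and 92. Between 4x and 2x hybrids 2 genes were called with genotype means as observations, and between 39 and 43 without 1 array. For the 4x hybrids minus the parents, 8 were called with genotype as a random block, 0 with genotype means (16 at an unadjusted p under 0.05 by limma), 22 without PG-F9 and between 11 and 17 without 1 array. For the 2x hybrids minus the parents, 9 were called in 1 fit with 8 genotype means, 1 with the random block, 0 with genotype means as observations (10 at an unadjusted p under 0.05), 12 without PG-F9, 13 without 12P and between 4 and 7 without 1 array. The cause of these changes was not tested.

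Between sibs, 5 genes (S29-4x and S48-4x) and 4 genes (S29-4x and S60-4x) were called with no threshold on the difference. For S8-2x and S24-2x, 4 were called with trend and robust options and 4 in 1 fit with 8 genotype means. For S16-2x and S24-2x, 3 were called with a floor at the negative controls, 3 without the third of all genes that was dimmest, 3 with trend and robust options and 4 in 1 fit with 8 genotype means. Without 1 array, the calls were between 0 and 1 (S29-4x and S48-4x), 1 and 2 (S29-4x and S60-4x), 1 and 3 (S8-2x and S16-2x) and 0 and 3 (S16-2x and S24-2x). Where 0 were called, between 9 and 15 (S29-4x and S48-4x) and between 11 and 18 (S16-2x and S24-2x) had an unadjusted p under 0.05 by limma. Between PG-F9 and 12P they were between 13 and 18.

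Same-numbered arrays had a mean correlation of residuals of -0.007 over 84 pairs, with 23 pairs over 0.1. The other pairs of arrays from different genotypes had a mean of 0.003 over 168 pairs. Positive and negative pairs can cancel in such a mean, so it cannot exclude a batch shared by some arrays only. With the replicate block, 0 of the 43 were called between S16-2x and S24-2x, where 14 had an unadjusted p under 0.05 by limma, and the other counts of calls stayed within 1.5 times.

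For single genes, the 4x hybrids minus the parents changed sign in TC176361 (-0.0806 without PG-F9, between -0.0783 and 0.50 without 1 array), TC192752 (-0.0475 without S29-4x, -0.69 without PG-F9, between -0.0197 and 0.39 without 1 array) and NP7256004 (0.0602 without S60-4x). The 4x minus 2x difference of the lipoxygenase TC182156 was under 1 in 13 of 32 alternatives and 0.09 with the floor at the negative controls. The values are also limited by the 3 genotypes of each ploidy level and, in 11 of the genes, by arrays at background.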
